A study of Homo sapiens with 42 samples.

Results

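Intergenic long noncoding RNA (lincRNA) genes were taken as the genes of GENCODE 29 gene type lincRNA whose mean was at least 10 reads over the libraries of a table, without MALAT1, NEAT1, GAS5, ZFAS1 and the SNHG genes. Of 5714 lincRNA genes with an entry, among 42145 genes of any type, the rule was met by 134 for LM2 and Par cells, 161 for the HNRNPC knockdown and 149 for the T4 treatment, each experiment having a table of its own. In all, 188 lincRNA genes met it in at least 1 table and 118 in all 3. Just inside the limit in the LM2 and Par table were AC126768.3 and LINC01444, with means of 10.17 and 10.33 reads, and just outside were AC048341.2, AC004253.1 and AL160272.1, with 9.83, 9.82 and 9.75. For the knockdown the 3 just inside had 10.08 to 10.25 and the 3 just outside 9.83 to 9.92, and for T4 these were 10.01 to 10.11 and 9.58 to 9.86. Every lincRNA gene that met the rule also passed the expression filter of the test. Not all lay apart from coding genes: 112 of 134, 134 of 161 and 122 of 149 (LM2 and Par, knockdown, T4) had no coding gene at their locus on either strand. The mean covers all groups of a table, so a gene can meet the rule through the group where it is high.

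All 42 libraries came from MDA-MB-231, a human triple-negative breast cancer cell line, and were made with the QuantSeq REV kit, which reads RNA from its 3′ end. The libraries formed 14 groups of 3. Par cells are labelled poorly metastatic and LM2 cells highly metastatic to lungs, and cytoplasmic and nuclear RNA was sequenced for each. The same fractions were sequenced from poorly metastatic cells with a control (gCTRL) or after knockdown of HNRNPC (gHNRNPC). LM2 cells were given 3 µM of a compound labelled T4 in DMSO, or the same volume of DMSO, for 6 h, and total RNA was taken at 6, 24 or 72 h, the later times after a change of medium. The labels do not say whether the 3 libraries of a group came from separate cultures, so p-values measure the spread between these libraries, which may be technical. They also do not say whether a line was 1 clone.

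A lincRNA is transcribed by RNA polymerase II from its own locus, as a rule outside protein-coding genes, and most are capped, spliced and polyadenylated. Many are held in the nucleus, where some act on chromatin or on splicing, while others are exported and act on RNA or protein in the cytoplasm. Some of their exons derive from transposable elements such as Alu and LINE-1 repeats, which are present in very many copies in the human genome. HNRNPC binds uridine tracts in new transcripts and is known for keeping Alu-derived sequence out of spliced RNA.

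The lincRNA genes fell into 2 classes by how their reads had been assigned. A gene was called shared-read if at least 50% of its reads lay in entries with a non-whole value in any library of the table, which shows that reads had been divided between entries by estimate. The others were called whole-read. Shared-read genes numbered 96, 98 and 119 (LM2 and Par, knockdown, T4), or 71.6, 60.9 and 79.9% of the lincRNA genes. They held 87.6, 81.0 and 96.4% of lincRNA reads. Of protein-coding genes with the same mean, 9.78, 9.09 and 12.4% were shared-read, and of antisense genes 75.2, 66.1 and 84.8%. Only 4, 4 and 3 genes had between 5 and 95% of their reads in such entries. This follows largely from the definition, since an entry is flagged as a unit and nearly all of these genes have 1 main entry. Of the 118 lincRNA genes present in every table, 92 were shared-read throughout, 25 whole-read throughout and 1 changed class.

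Sequences at the 3′ ends describe the classes. Reads are divided where entries are alike in sequence, so repeated sequence at shared-read ends follows in part from the definition of the class. The annotated ends (GENCODE 29, GRCh38) of the 3 lincRNA genes of highest level in every table, LINC00895, AL365181.1 and MEG8, a maternally expressed RNA of the imprinted DLK1-MEG3 region, hold a word from the right arm of the Alu repeat. Those of AC006504.1, AC013448.1 and ARRDC3-AS1 hold a word from the 3′ end of LINE-1. Whole-read ends are shown for 4 genes that the results turn on, as the last 90 bases of the transcript, with capitals on the poly(A) signal, the hexamer that directs cleavage and polyadenylation. EPB41L4A-AS1 ends at chr5:112162235-112162324 (plus strand), AC002401.4 at chr17:50094558-50094647 (plus strand), BX255923.1 at chr9:41076303-41076392 (plus strand) and AC006058.1 at chr3:44122276-44122365 (plus strand).
EPB41L4A-AS1: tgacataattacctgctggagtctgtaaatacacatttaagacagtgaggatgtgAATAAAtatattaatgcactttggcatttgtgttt
AC002401.4: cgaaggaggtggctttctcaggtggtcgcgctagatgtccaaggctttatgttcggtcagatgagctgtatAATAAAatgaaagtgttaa
BX255923.1: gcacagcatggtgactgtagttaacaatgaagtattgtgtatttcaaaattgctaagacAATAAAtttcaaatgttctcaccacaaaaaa
AC006058.1: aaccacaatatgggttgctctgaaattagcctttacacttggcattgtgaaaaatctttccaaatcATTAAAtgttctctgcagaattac
No pair of these 4 shared more than 10 bases in a row within the last 150.

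The same contrast held across the classes. In the last 150 bases, words of 16 letters that also occur at the ends of more than 5 genes covered a median of 73.7, 72.3 and 71.3% of a shared-read end in the 3 tables, and 0% of a whole-read end. Each repeat word was read from the end of 1 annotated transcript, not from a consensus, so the end it came from matches by construction. The Alu words have 12 (right arm) and 9 bases (left arm), and the LINE-1 word has 8. A word from the right or the left arm of Alu was found in 48 of 96, 48 of 98 and 53 of 119 shared-read ends, and in 1 of 38, 2 of 63 and 1 of 30 whole-read ends. Among all 66115 annotated ends with an entry, the right-arm word was found in 0.806% and the left-arm word in 0.301%, reading the transcript strand. Alu words were not particular to shared-read lincRNA genes. Either word was found in 67.1, 64.3 and 63.2% of shared-read antisense ends, a larger share than for lincRNA genes in each table. Among all shared-read genes other than these lincRNA genes it was 35.5, 34.2 and 35.8%, a smaller share. The LINE-1 word was found in 6 shared-read lincRNA ends in each table, in no whole-read lincRNA end and in 0.0877% of all ends. AATAAA or ATTAAA lay in the last 50 bases of 23 of 96, 25 of 98 and 30 of 119 shared-read ends, and of 27 of 38, 39 of 63 and 19 of 30 whole-read ends. The share over all annotated ends was 33.5%. Among other genes with the same mean it was 38.5, 39.3 and 36.1% for shared-read and 77.5, 77.5 and 77.4% for whole-read genes. In each table these were above the share for lincRNA ends of the same class. A word match describes the sequence and is not a measured site. Since a read from a repeat can come from another copy, a level of a shared-read gene may not be that of its own locus.

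Depth was 0.786 to 2.28 M reads per library over annotated genes. Levels below are CPM (read counts per M reads of the library) after TMM scaling, and since each transcript gives reads from its 3′ end only, they do not depend on transcript length. HNRNPC, the target of the knockdown, was at 99.9 ± 13.1 CPM (SD, n = 3) in gHNRNPC cytoplasm and 512 ± 32.1 in gCTRL cytoplasm, and at 98.4 ± 16.1 and 534 ± 96.1 in their nuclei. Nuclear MALAT1 was higher in nuclei than in cytoplasm by a log2 of 2.34 (Par), 1.51 (LM2), 3.26 (gCTRL) and 3.2 (gHNRNPC), and the ribosomal mRNA RPLP0 was lower by −1.93, −1.95, −1.91 and −1.35, each past the test. The mitochondrial RNA MT-CO1 was also higher in nuclei, by 3.39 to 6.02, and how far mitochondria in the nuclear fractions bear on the results was not tested. The epithelial and hormone receptor genes ESR1, PGR, ERBB2 and CDH1, low in this line, summed to at most 12.7 CPM in the fractionated cells, while VIM and AXL were abundant. A list of 4 genes present in this line summed to 424 to 3660 CPM there, and 1 of the 4 was at 0 in gCTRL nuclei. GAPDH, which every cell uses, was listed at only 2.44 ± 2.59 CPM (SD, n = 3) in gHNRNPC cytoplasm, so a low listed level does not show that an RNA is absent.

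Shared-read lincRNA genes took a variable share of the libraries. It was 0.239 to 3.74% of reads in LM2 and Par libraries, 0.278 to 1.30% in knockdown libraries and 0.963 to 4.84% in T4 libraries. Whole-read lincRNA genes took 0.0648 to 0.154%, 0.105 to 0.221% and 0.0575 to 0.138%. Some libraries stood apart. LM2 nuclei 2 had 3.74% and Par nuclei 2 had 3.42%, while the other nuclear libraries of those cells had 0.549 and 1.27%, and 0.339 and 0.639%. In those 2 libraries 94 of 96 shared-read genes had the highest value of the group, at a median of 6.74 and 10.9 times the mean of the other libraries. T4 6 h 3 had 4.84%, with 112 of 119 shared-read genes at their highest, and T4 72 h 2 had the lowest share of the table, 0.963%. Shared-read genes of other types were also highest there, at 44.0 and 42.1% of reads in LM2 nuclei 2 and Par nuclei 2, where the other nuclear libraries had 13.2 to 21.5%. The part of RNA quality or library preparation in this was not tested.

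**Figure D1:**
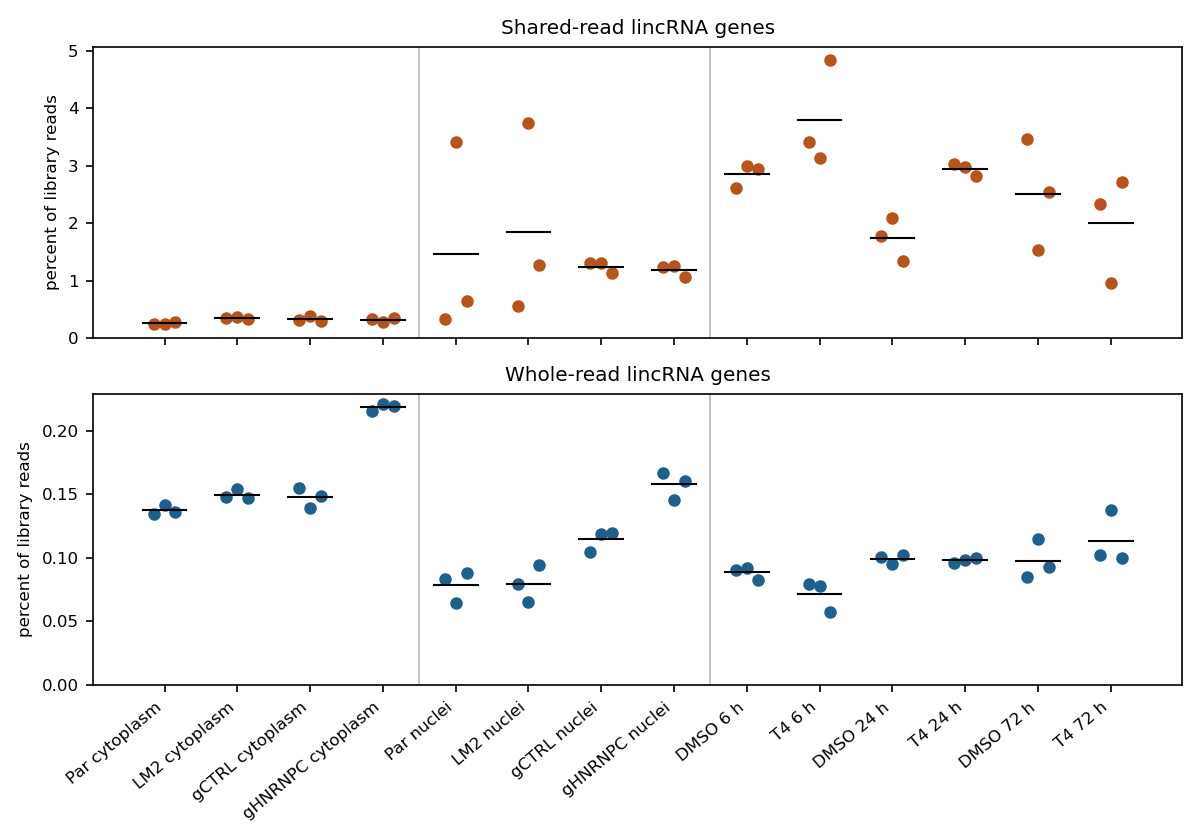
Percent of library reads (vertical axis, from 0) in shared-read lincRNA genes (top) and whole-read lincRNA genes (bottom) for the 14 groups on the horizontal axis; each point is 1 library and each line the mean of 3. LM2 nuclei 2 and Par nuclei 2 lie at 3.74 and 3.42%, above the other nuclear libraries, and the summed share of whole-read genes is higher in gHNRNPC than in gCTRL cytoplasm.

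Levels were led by shared-read genes. LINC00895 averaged 1340 CPM over LM2 and Par libraries, 948 over the knockdown and 3130 over the T4 libraries, followed each time by AL365181.1 (807, 501 and 2090 CPM) and MEG8 (658, 412 and 1600 CPM). The 10 lincRNA genes of highest mean level were all shared-read for LM2 and Par cells and for T4, and 9 of 10 were for the knockdown. The exception was NORAD, a cytoplasmic RNA that binds Pumilio proteins and guards chromosome number, which ranked 4 there at 286 CPM. The others of those 10 in at least 1 table were BX324167.1, AP001267.2, AC006504.1, LINC02023, LINC02087, AL592211.1, AC107419.1, AC114928.1, AC005616.1 and JADRR, at means of 220 to 1120 CPM.

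Shared-read lincRNA genes were mostly higher in nuclei than in cytoplasm, and whole-read genes went both ways, with more lower than higher in Par, LM2 and gCTRL cells and near equal numbers in gHNRNPC cells. In Par cells 47.8% of all 8542 genes tested differed between the fractions (adjusted p under 0.05, edgeR quasi-likelihood test), 25.8% being higher in nuclei and 21.9% lower. Of 96 shared-read lincRNA genes, 62 were higher in nuclei and 0 lower, with a median log2 of 3.33, while of 38 whole-read genes 3 were higher and 16 lower, with a median of −0.74. The median of all genes was 0.07. In LM2 cells 55.0% of genes differed (31.4% higher, 23.5% lower), and 57 shared-read genes were higher and 0 lower (median 2.95), and 4 whole-read genes were higher and 15 lower (median −0.85, all genes 0.22). In these bulk samples, a higher level in each cell and in more of the cells cannot be told apart.

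In gCTRL cells 61.5% of 9351 genes differed (33.9% higher, 27.6% lower). There 85 of 98 shared-read lincRNA genes were higher in nuclei and 1 was lower (median 2.14), and 15 of 63 whole-read genes were higher and 21 lower (median −0.37, all genes 0.06). In gHNRNPC cells 54.4% of genes differed (31.3% higher, 23.1% lower), with 89 shared-read genes higher and 1 lower (median 2.33) and 16 whole-read genes higher and 17 lower (median −0.19, all genes 0.03). The shared-read gene that was lower was LINC01641 in gCTRL cells and AC074183.1 in gHNRNPC cells, both named after their values were seen. Of the 92 genes that were shared-read in both tables and tested in all 4 comparisons, 52 were higher in nuclei in each, where 19.5% of all genes tested in all 4 were. Shared-read protein-coding genes had medians of 1.72, 1.76, 1.22 and 1.37 in Par, LM2, gCTRL and gHNRNPC cells and whole-read ones −0.09, 0.02, −0.12 and −0.14, while shared-read antisense genes had 3.01, 2.69, 2.13 and 2.30 and whole-read ones −0.60, −0.24, −0.64 and −0.73. The difference between the classes was not tested.

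**Figure D2:**
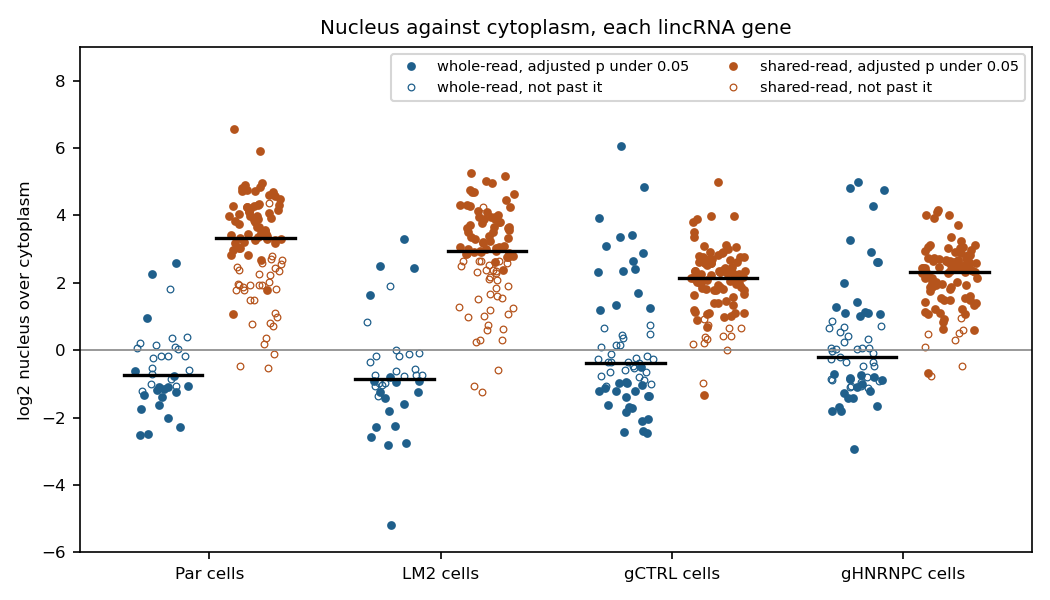
Log2 of nucleus over cytoplasm (vertical axis) for each lincRNA gene in Par, LM2, gCTRL and gHNRNPC cells, whole-read in blue and shared-read in orange; filled points are past an adjusted p of 0.05 and black lines are medians. Shared-read medians lie between 2.14 and 3.33, and whole-read medians between −0.85 and −0.19.

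These counts depended on the libraries entered. Without Par nuclei 2, 9 shared-read genes were higher and 0 lower in Par nuclei (median 1.18). Without LM2 nuclei 2, 13 were higher and 1 lower in LM2 nuclei (median 1.48). Without both of those libraries, 49 were higher and 2 lower in Par cells and 61 higher and 3 lower in LM2 cells, with medians of 1.18 and 1.5. Leaving out a cytoplasmic library also cut the lincRNA calls, from 81 to 32, 32 and 44 in Par cells without cytoplasm 1, 2 and 3, and from 76 to 36, 42 and 35 in LM2 cells. In the knockdown table no library left out took the count below 109, where the 2 comparisons gave 122 and 123.

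Whether libraries overlap is given below for single genes; over all genes the libraries of the 2 fractions did not overlap for 56.6% (Par), 62.9% (LM2), 65.0% (gCTRL) and 60.9% (gHNRNPC). LINC00895 was at 461, 425 and 519 CPM in Par cytoplasm and at 323, 4870 and 583 CPM in Par nuclei. Of the nuclear libraries, 1 lay far above the cytoplasm, 1 just above it and 1 below it. Its log2 of 2.04 ± 0.99 (SE, adjusted p = 0.110) did not pass the test. In the knockdown table the same gene was at 565, 760 and 550 CPM in gCTRL cytoplasm and 1370, 1460 and 1170 CPM in nuclei, without overlap (1.09 ± 0.18, adjusted p = 1.12e-05).

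Among the examples named above, the 3 genes with the LINE-1 word had larger differences than the 3 with the Alu word in LM2, gCTRL and gHNRNPC cells. In Par cells AC013448.1 lay below MEG8 and AL365181.1. AC006504.1 was at 23.3, 21.6 and 23.7 CPM in Par cytoplasm and 163, 1440 and 261 CPM in nuclei, all nuclear values above all cytoplasmic ones (4.76 ± 0.93, adjusted p = 0.00175). In gCTRL cells its log2 was 3.82 ± 0.22 (adjusted p = 1.01e-12). AC013448.1 had a log2 of 2.84 in Par and 2.70 in gCTRL cells, and ARRDC3-AS1, named for its place on the strand opposite the arrestin-domain gene ARRDC3, had 3.88 and 3.98. In gCTRL cells the Alu-ended AL365181.1 and MEG8 had 2.01 ± 0.20 and 2.07 ± 0.20. No test of the difference between the trios was run, as the genes were chosen as examples.

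Whole-read lincRNA genes that were lower in nuclei included abundant RNAs. NORAD (chromosome 20, 36045622 to 36050960, minus strand, 1 exon) was at 393, 418 and 342 CPM in Par cytoplasm and 157, 126 and 157 CPM in Par nuclei. All cytoplasmic values lay above all nuclear ones (−1.39 ± 0.18, adjusted p = 0.000144), and this held for LM2 (−0.90), gCTRL (−0.98) and gHNRNPC cells (−1.27). EPB41L4A-AS1 (chromosome 5, 112160526 to 112164276, plus strand, 2 exons, opposite the coding gene EPB41L4A) was at 91.8, 89.2 and 95.2 CPM in Par cytoplasm and 28, 31.1 and 29.8 CPM in nuclei. The groups did not overlap (−1.63 ± 0.27, adjusted p = 0.000611). Its log2 was −2.74, −2.09 and −1.69 in LM2, gCTRL and gHNRNPC cells. AC245595.1 (chromosome 1, 144227030 to 144250288, minus strand) was lower in nuclei by −2.27, −2.26, −2.45 and −1.80 in the 4 cell groups. With AL132656.2 and AL392172.1 these made 5 genes lower in nuclei in each comparison, of 36 that were whole-read and tested in all 4, where 14.8% of all genes were lower in each, a share near that of these genes.

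LINC01116, an RNA reported to be raised in several cancers, had 70 reads in LM2 cytoplasm and 1 in LM2 nuclei. The scaled cytoplasm to nucleus ratio was 45.8 (95% interval 7.96 to 1840, counting error only). In Par cells it had 74 and 7 reads (−2.53 ± 0.63, adjusted p = 0.0074). Of 8 lincRNAs listed as mainly cytoplasmic, only NORAD and CYTOR met the rule, and CYTOR did not pass in any of the 4 comparisons (log2 from −1.03 to 0.06). None of 14 lincRNAs listed as mainly nuclear or chromatin-linked met it.

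Higher in nuclei in all 4 comparisons were 2 of these 36 whole-read genes, a smaller share than the 19.5% of all genes. They were AC073869.3 (chromosome 2, log2 of 0.96, 1.64, 1.70 and 1.12 in Par, LM2, gCTRL and gHNRNPC cells) and AC102953.2 (chromosome 7, log2 of 2.27, 3.30, 2.42 and 1.99). The knockdown table held more of them. AC006058.1 (chromosome 3, 44117299 to 44122365, plus strand, 1 exon) was at 1.63, 0 and 0.474 CPM in gCTRL cytoplasm and 20.3, 25.9 and 19.8 CPM in nuclei. No values overlapped (4.85 ± 0.52, adjusted p = 2.13e-08), and in gHNRNPC cells the log2 was 4.75 ± 0.46. AC016831.4 (chromosome 7, 130930209 to 130932206, minus strand, 1 exon) had 3 reads in gCTRL cytoplasm and 181 in nuclei. The scaled ratio was 75.3 (25.3 to 368, counting error only).

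MIR3142HG, the host RNA of the microRNAs miR-3142 and miR-146a, was at 2.72, 1.62 and 0.948 CPM in gCTRL cytoplasm and 25.4, 25.2 and 31.7 CPM in nuclei, without overlap (3.93 ± 0.42, adjusted p = 1.89e-08). SND1-IT1, which lies within the coding gene SND1 on the same strand, had a log2 of 3.09 ± 0.51 in gCTRL and 4.98 ± 0.58 in gHNRNPC cells. For such a gene, reads of the host transcript cannot be told apart from its own. AC048341.2 had 3.37 and 4.27. In the knockdown table the 28 whole-read genes with 1 exon had medians of 0.12 in gCTRL and 0.38 in gHNRNPC cells, and the 35 with 2 or more had −0.77 and −0.79. In the LM2 and Par table the corresponding medians were −0.85 and −0.74 in Par cells and −0.85 and −0.86 in LM2 cells, so the split by exon number was not seen there.

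HNRNPC knockdown raised a set of whole-read lincRNA genes in both fractions. In cytoplasm 23.4% of all genes changed, 11.7% up and 11.7% down, and of 63 whole-read lincRNA genes 17 rose and 8 fell (median log2 0.50, all genes 0.01), while of 98 shared-read genes 6 rose and 7 fell (median −0.15). In nuclei 14.1% of all genes changed, 8.43% up and 5.7% down, and 17 whole-read genes rose and 3 fell (median 0.52, all genes 0.04). Only 1 of 98 shared-read genes passed in nuclei, AC074183.1. The 63 whole-read genes together took 0.216 to 0.221% of reads in gHNRNPC cytoplasm and 0.139 to 0.155% in gCTRL cytoplasm, which do not overlap. In nuclei they took 0.146 to 0.167% and 0.105 to 0.120%. Each has an exact permutation p of 0.1, the smallest that 3 against 3 can give, and 0.147 after adjustment over 22 such tests. The sum weighs abundant genes most, among them EPB41L4A-AS1, which rose, and MANCR and AC245595.1, which fell. It does not describe each gene of the class. The mean of the rule includes the gHNRNPC libraries, so genes may also enter the sum through their rise. The summed level of 5 immune marker genes moved with the knockdown too, from 4.86 to 8.16 CPM up to 15.7 to 22.3 CPM in cytoplasm and from 31.0 to 38.7 CPM up to 55.4 to 138 CPM in nuclei. Most of it was CD68, and PTPRC and CD3E, which mark white cells, were at or near 0.

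In both fractions 13 of the 63 whole-read genes rose, where 5.0% of all genes did. The mean of the rule includes the gHNRNPC libraries, so genes low in gCTRL cells, such as LINC00941, may meet it through their rise. Libraries of knockdown and control did not overlap for 40.5% of all genes in cytoplasm and 29% in nuclei, against which the statements on overlap below stand. AC002401.4 (chromosome 17, 50094065 to 50094647, plus strand, 1 exon) was at 1.09, 1.62 and 0.474 CPM in gCTRL cytoplasm and 21.7, 14.8 and 19.3 CPM in gHNRNPC cytoplasm. In nuclei it was at 20.3, 7.11 and 7.92 CPM and at 141, 129 and 157 CPM. Neither pair of groups overlapped, and the log2 was 4.07 ± 0.48 (adjusted p = 1.68e-06) in cytoplasm and 3.58 ± 0.30 (adjusted p = 1.76e-08) in nuclei. Its end, shown above, has a poly(A) signal and no repeated word.

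AL645608.7 (chromosome 1, 995966 to 998051, minus strand, 1 exon) was at 12.5, 11.4 and 6.16 CPM in gCTRL cytoplasm and 69.5, 41.4 and 61.7 CPM in gHNRNPC cytoplasm. All knockdown values lay above the control values there and in nuclei, with a log2 of 2.53 ± 0.30 (adjusted p = 1.68e-06) and 3.5 ± 0.30 (adjusted p = 3.45e-08). BX255923.1 (chromosome 9, 41073710 to 41076392, plus strand, 2 exons) rose from 20.1, 13.5 and 16.1 CPM to 86.3, 93.5 and 84.4 CPM in cytoplasm. The groups did not overlap in cytoplasm (2.40 ± 0.25, adjusted p = 3.19e-07) or in nuclei (3.03 ± 0.31, adjusted p = 3.09e-07).

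EPB41L4A-AS1 was the most abundant of the risers. It was at 123, 129 and 114 CPM in gCTRL cytoplasm and 446, 424 and 451 CPM in gHNRNPC cytoplasm, and at 25.4, 33.0 and 27.7 CPM and 104, 127 and 177 CPM in nuclei. The groups stood apart in both fractions, with a log2 of 1.85 ± 0.19 (adjusted p = 3.0e-07) and 2.25 ± 0.22 (adjusted p = 1.51e-07). LINC00941, an RNA reported in invasive carcinomas, was at 8.70, 5.95 and 6.16 CPM and 28.2, 28.6 and 35.6 CPM in cytoplasm. Its values did not overlap, and it rose by 2.15 ± 0.33 there and by 2.75 ± 0.44 in nuclei.

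Others that rose in both fractions were AC027307.3, AC132872.1, AL139246.5, AL161431.1, EIF3J-DT, LINC01806 and MAPKAPK5-AS1, by a log2 of 0.63 to 2.85 in cytoplasm and 1.04 to 1.95 in nuclei. EIF3J-DT is transcribed divergently from the coding gene it is named for. In nuclei AL161431.1 lost its call in 4 of 6 fits with 1 library fewer, those without gCTRL nuclei 1 or 3 or gHNRNPC nuclei 1 or 3 (highest adjusted p of 0.174). AC027307.3 lost its nuclear call without gCTRL nuclei 1 or gHNRNPC nuclei 1 (0.0742). For EPB41L4A-AS1, AL139246.5, EIF3J-DT and MAPKAPK5-AS1 a coding gene lies on the other strand, and whether the strand of reads was used in counting is not given in the sources used here. Of 43 whole-read antisense genes, 16 were higher and 2 lower in cytoplasm and 16 higher and 1 lower in nuclei. Among the genes excluded by the rule, ZFAS1 rose by 4.48 in cytoplasm and 3.34 in nuclei, and SNHG15 by 2.05 and 1.06.

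AC074183.1 (chromosome 7, 84939349 to 84940245, minus strand, 2 exons) was the shared-read gene that rose most. It was at 20.7, 14.1 and 22.8 CPM in gCTRL cytoplasm and 101, 198 and 156 CPM in gHNRNPC cytoplasm, without overlap (2.98 ± 0.27, adjusted p = 5.19e-08). In nuclei the log2 was 1.94 ± 0.27 (adjusted p = 3.25e-05). Its last 150 bases hold no repeated word, yet its reads were divided with other entries, so the rise cannot be placed at this locus alone. The Alu-ended LINC00895 was at 493, 392 and 476 CPM in gHNRNPC cytoplasm and 1390, 1430 and 1310 CPM in nuclei, and overlapped gCTRL in nuclei.

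Down after the knockdown in both fractions were AC245595.1 and MANCR, 2 of 63 whole-read genes, where 3.58% of all genes were, so their number is near the background. MANCR (chromosome 10, 4650185 to 4678154, minus strand, 3 exons), an RNA reported to be needed for mitosis in aggressive breast cancer cells, was at 123, 130 and 173 CPM in gCTRL cytoplasm and 40.7, 30.7 and 38.5 CPM in gHNRNPC cytoplasm. In nuclei it was at 97.7, 99.6 and 104 CPM and, after the knockdown, at 27.8 to 53.7 CPM. Both pairs of groups stood apart, and it fell by 1.95 ± 0.22 (adjusted p = 1.12e-06) and 1.19 ± 0.23 (adjusted p = 0.000975) on the log2 scale.

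AC245595.1 was at 85.4, 105 and 89.1 CPM in gCTRL cytoplasm and 22.8, 15.8 and 30.8 CPM in gHNRNPC cytoplasm, without overlap (−1.99 ± 0.23, adjusted p = 1.37e-06), and its log2 was −1.34 ± 0.34 in nuclei. LINP1, a scaffold RNA for the end-joining repair of DNA breaks, was at 45.1, 35.1 and 41.7 CPM and 20.1, 11.8 and 18.4 CPM in cytoplasm. Its groups did not overlap (−1.27 ± 0.27, adjusted p = 0.00152), and in nuclei it had a log2 of −0.51 ± 0.33 (adjusted p = 0.348). MIR3142HG fell in nuclei by 1.67 ± 0.35 (adjusted p = 0.00199). LINC01444, LINC00957 and FP236383.2 were lower in cytoplasm by −1.98, −1.81 and −1.52. FP236383.2 lies among near-identical ribosomal repeats of chromosome 21, so its counts are uncertain.

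**Figure D3:**
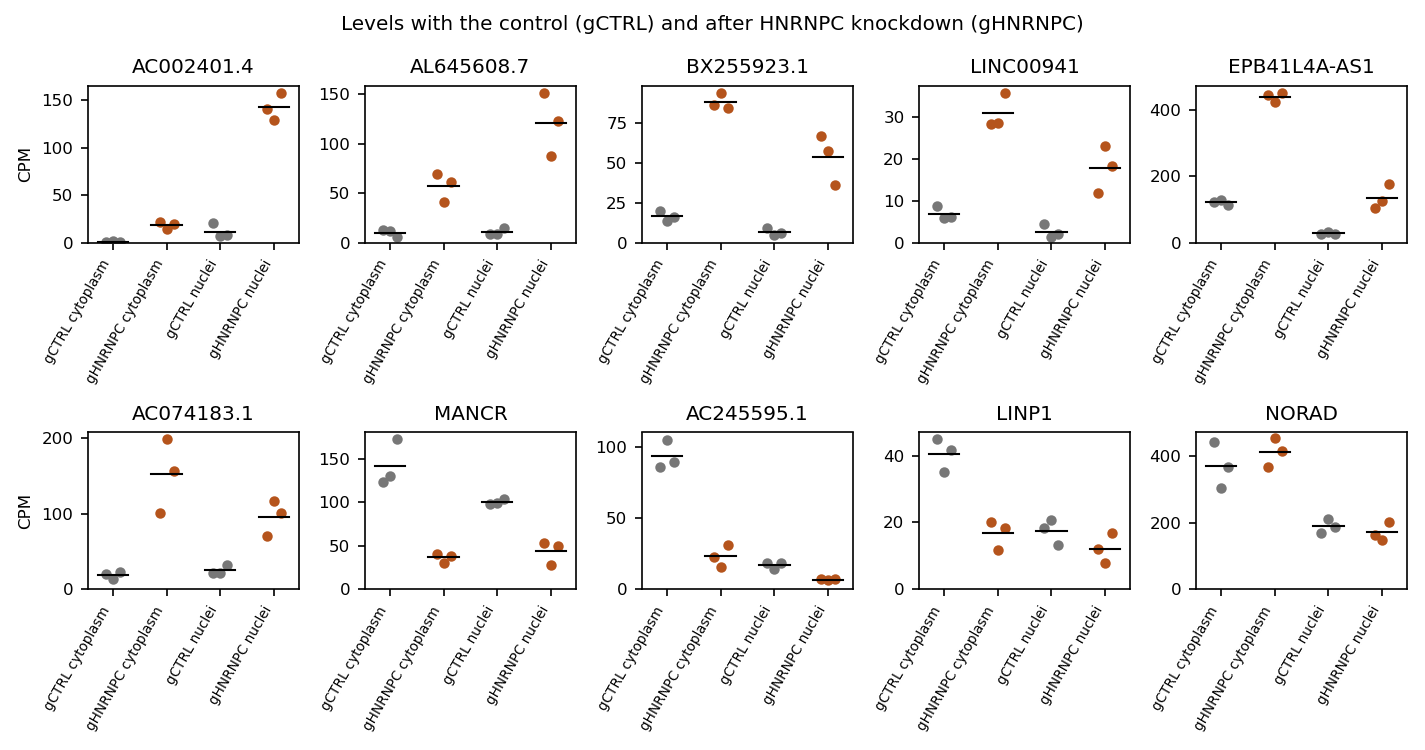
Level in CPM (vertical axes, from 0) of 10 lincRNA genes in cytoplasm and nuclei of gCTRL (grey) and gHNRNPC (orange) cells; each point is 1 library and each line the mean of 3. The first 6 genes are higher after the knockdown in both fractions, MANCR and AC245595.1 are lower in both, LINP1 passed only in cytoplasm, and NORAD passed in neither.

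No lincRNA gene passed the test for a knockdown effect that differs between nuclei and cytoplasm. That interaction test called 0.0214% of all genes, 0.0107% in each direction, and 0 of 161 lincRNA genes, with 19 at an unadjusted p under 0.05, and DESeq2 gave a count of 0 as well. LINC00324 had a difference of −1.92 ± 0.48 (adjusted p = 0.141). It was at 8.16, 3.24 and 8.53 CPM in gCTRL cytoplasm and 16.3, 29.1 and 30.0 CPM in gHNRNPC cytoplasm, which do not overlap (1.91 ± 0.36, adjusted p = 5.0e-04). In nuclei its values, 41.9, 32.3 and 27.7 CPM against 20.4, 42.1 and 37.9 CPM, did overlap. This gene was picked from the rise in cytoplasm after its values were seen. Of 5 genes on a list of cancer-linked lincRNAs that met the rule in this table, LINC00941 rose and LINP1 fell in cytoplasm, and CYTOR, LINC00261 and NORAD did not pass in either fraction.

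With all groups of the table in one fit, LM2 and Par cells differed at few lincRNA genes. In cytoplasm 10.9% of all genes differed (3.98% higher, 6.92% lower), and 3 whole-read lincRNA genes were higher and 3 lower in LM2 cells, with 0 of 96 shared-read genes past the test. Shared-read genes had a median of 0.57 and whole-read ones 0.18, and all genes −0.02. In cytoplasm shared-read genes took 0.334 to 0.363% of reads in LM2 and 0.239 to 0.285% in Par cells. These shares did not overlap (exact permutation p of 0.1, and 0.147 adjusted over 22 tests). In nuclei 2.22% of all genes differed (1.15% higher, 1.08% lower), 1 whole-read gene was higher and 1 lower, and again no shared-read gene passed. The nuclear medians were 0.29 for shared-read and 0.17 for whole-read genes, and without both nuclear libraries numbered 2 the shared-read median was 0.94. In nuclear libraries 1, 2 and 3, shared-read genes took 0.549, 3.74 and 1.27% of reads in LM2 and 0.339, 3.42 and 0.639% in Par cells, higher in LM2 cells at each number. The labels state no pairing by number, though same-numbered libraries deviated together (r of 0.626, 0.749 and 0.15). Without pairing the groups overlapped (exact permutation p of 0.6, and 0.66 adjusted over 22 tests). With the replicate block 1 whole-read gene and 0 shared-read genes passed in nuclei. The count rests on the fit. With the 2 cytoplasmic groups alone, 39 lincRNA genes passed, 30 of them shared-read (28 higher and 2 lower), and 32.7% of all genes did. Without both nuclear libraries numbered 2, 19 passed in cytoplasm, 10 of them shared-read. Libraries of LM2 and Par cells did not overlap for 42.9% of all genes in cytoplasm and 16.6% in nuclei. Of 96 shared-read genes, 40 did not overlap in cytoplasm, a share near that of all genes, with 39 higher in LM2 cells, and 0 in nuclei. Of 38 whole-read genes these were 14 and 9. Of 5 fibroblast and endothelial marker genes, COL1A1 gave nearly all of a summed 8.0 to 8.99 CPM in LM2 cytoplasm and 27.4 to 62.5 CPM in LM2 nuclei, against at most 1.44 CPM in Par cells, while COL3A1 and DCN were at 0 in LM2 cells. The part of this in the results was not tested.

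LINP1 (chromosome 10, 6709530 to 6740532, plus strand, 5 exons) was the best supported. It was at 192, 181 and 172 CPM in LM2 cytoplasm and 75.4, 76.8 and 68.2 CPM in Par cytoplasm. In nuclei it was at 59.0, 92.5 and 78.8 CPM and at 33.0, 39.2 and 31.5 CPM. LM2 values were above Par values throughout, by 1.30 ± 0.18 (adjusted p = 0.00251) in cytoplasm and 1.15 ± 0.19 (adjusted p = 0.00728) in nuclei. In cytoplasm it kept its call whichever library was left out, and in nuclei it lost it without Par nuclei 3 (adjusted p = 0.0512) and in a fit of the nuclear groups alone (adjusted p = 0.134).

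MANCR was lower in LM2 cells, at 23.1, 26.6 and 29.2 CPM in cytoplasm against 71.6, 68.1 and 58.3 CPM in Par cells. In nuclei it was at 13.7, 19.2 and 14.6 CPM against 25.1, 70.3 and 38.9 CPM. Neither pair overlapped, with a log2 of −1.32 ± 0.31 (adjusted p = 0.024) and −1.48 ± 0.34 (adjusted p = 0.0476). With the replicate number as a block, since same-numbered nuclear libraries deviated together, the nuclear value was −1.43 with an adjusted p of 0.0593. It also missed the threshold without both nuclear libraries numbered 2 (−1.16, adjusted p = 0.0839).

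LINC00261, a neighbour of the endoderm gene FOXA2 that is often low in tumours, was at 3.85, 3.09 and 1.14 CPM in LM2 cytoplasm and 14.2, 26.4 and 7.15 CPM in Par cytoplasm, without overlap (−2.55 ± 0.63, adjusted p = 0.0291). AC102953.2 was at 0.642, 1.24 and 1.72 CPM and 7.33, 5.28 and 3.30 CPM (−2.07 ± 0.46, adjusted p = 0.0207), and AL139246.5 at 79.6, 50.7 and 65.2 CPM and 29.7, 25.4 and 37.4 CPM (1.08 ± 0.30, adjusted p = 0.0408). FP236383.2 was higher by 1.18 ± 0.33 (adjusted p = 0.0435). Each of these 4, and MANCR in cytoplasm, lost its call when any of LM2 cytoplasm 1, 2 or 3 or Par cytoplasm 1 or 2 was left out. The LM2 effect did not pass as different between nuclei and cytoplasm for any lincRNA gene, where 0.0% of all genes passed in either direction (3 lincRNA genes at an unadjusted p under 0.05, and 0 by DESeq2).

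**Figure D4:**
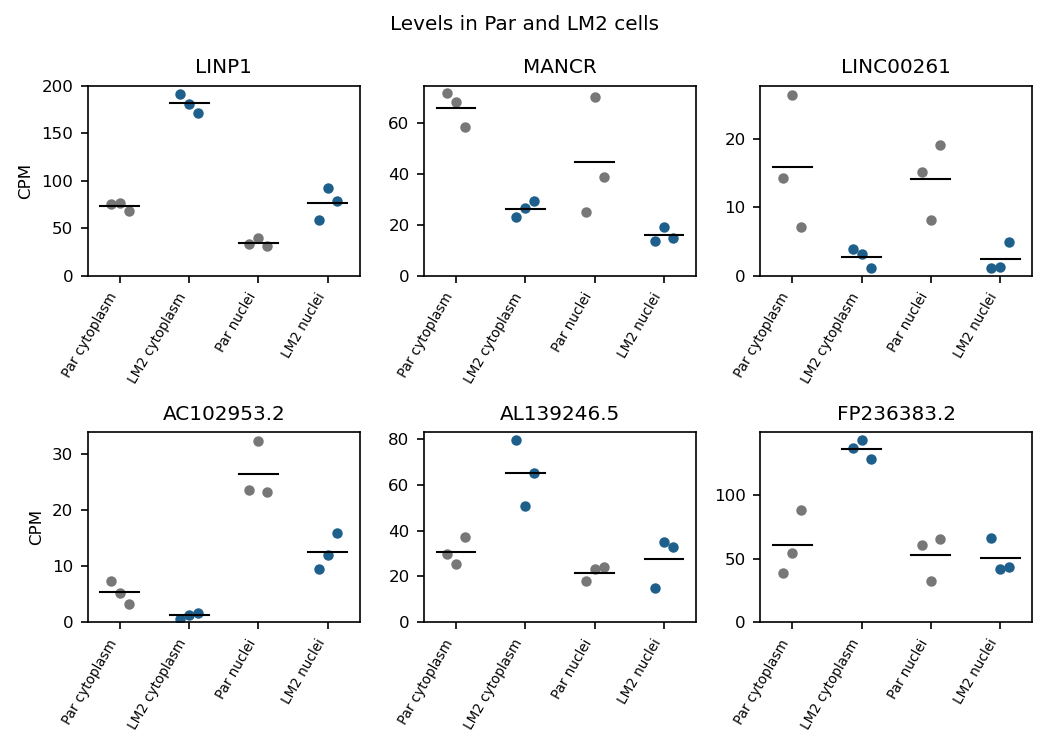
Level in CPM (vertical axes, from 0) of the 6 lincRNA genes past the test in cytoplasm, in Par (grey) and LM2 (blue) cells by fraction; each point is 1 library and each line the mean of 3. LINP1 is higher and MANCR lower in LM2 cells in both fractions without overlap of libraries.

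After T4, 16 of 149 lincRNA genes passed the test at 6 h and 8 at 24 h, shares below or near those of all genes. In this fit the total number of calls is no result about lincRNA genes. By direction more of them rose and fewer fell at 6 h than among all genes, but these counts moved with single libraries and with the scaling. At 6 h 16.0% of all genes changed, 3.41% up and 12.6% down (median −0.11), and 13 lincRNA genes rose and 3 fell. Of the whole-read genes 6 of 30 rose and 3 fell (median 0.27, and −0.14 with library totals), and of the shared-read genes 7 of 119 rose and 0 fell (median 0.98). At 24 h 5.24% of all genes changed, 2.2% up and 3.04% down, with 2 whole-read genes up and 2 down (median 0.21) and 4 shared-read genes up and 0 down (median 0.97, all genes 0.02). At 72 h 0.261% of all genes changed (0.0996% up, 0.162% down) and 0 lincRNA genes (4 at an unadjusted p under 0.05, and 0 by DESeq2), with shared-read genes at a median of −0.46. Libraries of T4 and DMSO did not overlap for 38.7, 37.9 and 18.4% of all genes at 6, 24 and 72 h. Of 119 shared-read genes, 88 did not overlap at 6 h (87 higher after T4), 100 at 24 h (100 higher) and 1 at 72 h. Of 30 whole-read genes these were 16, 12 and 2.

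The share of reads in shared-read genes moved with these values. It was 3.13 to 4.84% after T4 and 2.62 to 2.99% after DMSO at 6 h, 2.83 to 3.03% and 1.34 to 2.09% at 24 h, and 0.963 to 2.71% and 1.53 to 3.46% at 72 h. The groups stood apart at 6 h and 24 h and overlapped at 72 h, and the exact permutation p was 0.1, 0.1 and 0.6 (0.147, 0.147 and 0.660 adjusted over 22 tests). Counts at 6 h moved with single libraries, to 7 without DMSO 6 h 1, 26 without T4 6 h 2 and 11 without T4 6 h 3, where 6 whole-read genes rose, 3 fell and 2 shared-read genes rose. At 24 h leaving out 1 library took the count from 8 to 5 without DMSO 24 h 2 or T4 24 h 2, and to 3 without any of the other four. A fit of the 24 h groups alone called 92 lincRNA genes, 83 of them shared-read and higher, when 28.2% of all genes passed. Scaling to library totals lowered the median of all genes at 6 h by 0.40, and then 2 shared-read genes rose.

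Whole-read genes with the largest rises are given first. The rule counted the T4 6 h libraries too, so a gene low in the other groups may meet it through its rise. AC027307.3 had group means of 3.34 to 8.7 CPM outside T4 6 h. AC027307.3 (chromosome 19, 1440839 to 1441938, plus strand, 1 exon) was at 4.76, 3.19 and 5.20 CPM after DMSO and 26.4, 25.2 and 52.3 CPM after T4 at 6 h. The groups did not overlap, and the log2 was 2.85 ± 0.38 (adjusted p = 7.37e-05). At 72 h it was at 8.45, 5.10 and 9.26 CPM and 8.15, 5.24 and 6.14 CPM, which overlap, and the difference between the 72 h and 6 h effects was −3.06 ± 0.54 (adjusted p = 0.00203).

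AC025181.2 (chromosome 5, 32174471 to 32175272, plus strand, 1 exon) was at 9.52, 10.4 and 5.20 CPM and 32.7, 44.8 and 86.4 CPM at 6 h, again without overlap (2.63 ± 0.43, adjusted p = 0.000462). AC006058.3 (chromosome 3, 43998081 to 43999149, minus strand, 1 exon) was at 14.3, 17.6 and 15.6 CPM and 39.1, 32.7 and 63.6 CPM at 6 h, and at 11.4, 9.25 and 16.8 CPM and 54.8, 48.5 and 33.3 CPM at 24 h. It rose at both times, by 1.43 ± 0.30 (adjusted p = 0.00294) and 1.85 ± 0.28 (adjusted p = 0.00201). Without T4 6 h 3, the library that stood apart, AC027307.3, AC025181.2 and AC006058.3 stayed past the threshold at 6 h.

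EBLN3P and AC005261.1 fell at 6 h and did not pass the test at 24 h or 72 h. EBLN3P (chromosome 9, 37079857 to 37090507, plus strand), which holds a relic of a bornavirus-like gene, was at 11.9, 15.2 and 17.6 CPM after DMSO and 1.82, 1.87 and 4.55 CPM after T4 at 6 h (−2.64 ± 0.49, adjusted p = 0.00137). At 24 h its values, 12.1, 8.02 and 14.3 CPM and 13.3, 8.34 and 18.7 CPM, overlapped. AC005261.1 (chromosome 19, 57304305 to 57308562, plus strand, 1 exon) was at 40.4, 54.3 and 44.9 CPM and 13.6, 13.1 and 18.2 CPM at 6 h, without overlap (−1.69 ± 0.27, adjusted p = 0.000338). For both genes the effects at 24 h and 72 h differed from that at 6 h in the interaction test, in which 9.1% of all genes passed for 24 h (7.24% higher, 1.85% lower) and 9.38% for 72 h (7.87% higher, 1.52% lower), and no library left out ended these calls. AP001505.1 fell by 1.04 ± 0.29 at 6 h (adjusted p = 0.0203), and lost its call without DMSO 6 h 1 or T4 6 h 1.

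LINP1 was lower after T4 than after DMSO at 24 h, at 137, 150 and 138 CPM after DMSO and 67.2, 63.7 and 80.3 CPM after T4. The groups stood apart (−1.01 ± 0.20, adjusted p = 0.00707). Mean levels at 6, 24 and 72 h were 72.1, 70.4 and 106 CPM after T4 and 92.7, 142 and 114 CPM after DMSO. The level after T4 was thus similar at 6 h and 24 h, and the DMSO level was highest at 24 h. At 6 h and 72 h its log2 was −0.33 ± 0.20 and −0.11 ± 0.19, not past the test, and the 24 h effect was not shown to differ from that at 6 h (−0.68 ± 0.28, adjusted p = 0.149). LINC01806 was lower at 24 h by −1.90 ± 0.48 (adjusted p = 0.0279), and lost its call without any of 4 libraries. Of 3 cancer-linked genes that met the rule in this table, LINP1 was the one called, and NORAD and CYTOR passed at no time.

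Shared-read genes that rose at 6 h were led by LINC01104 (2.03 ± 0.62, adjusted p = 0.0326), LINC01873 (1.55 ± 0.29, adjusted p = 0.00144) and AL450326.1 (1.5 ± 0.38, adjusted p = 0.0115). LINC01873 was at 110, 94.2 and 99.5 CPM after DMSO and 214, 271 and 414 CPM after T4, without overlap, and kept its call whichever library was left out. LINC01104 lost it without T4 6 h 3 or any DMSO 6 h library. At 24 h AC126768.3 (1.32 ± 0.27, adjusted p = 0.00904) kept its call in each such fit, while AC040173.1, AC127459.2 and AC007342.5 lost theirs in all 6. The Alu-ended LINC00895 was at 2700, 3280 and 3130 CPM and 4220, 3680 and 10700 CPM at 6 h, and at 1710, 2340 and 1250 CPM and 3200, 3500 and 3000 CPM at 24 h. These groups did not overlap, though the gene was not called.

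**Figure D5:**
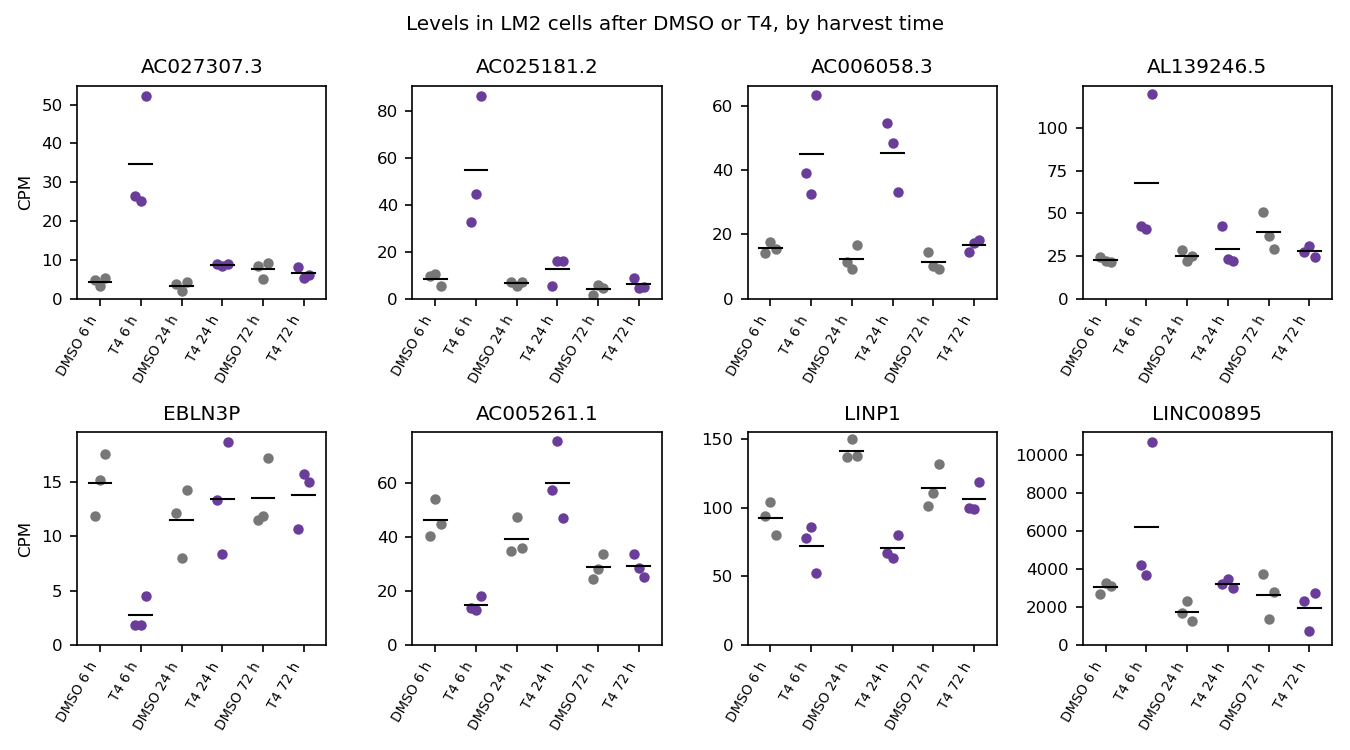
Level in CPM (vertical axes, from 0) of 8 lincRNA genes in LM2 cells after DMSO (grey) or T4 (purple) at 6, 24 and 72 h; each point is 1 library and each line the mean of 3. EBLN3P and AC005261.1 are lower after T4 at 6 h, LINP1 is lower after T4 than after DMSO at 24 h, and 1 library at 6 h lies far above the others for LINC00895.

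Several genes were called in more than 1 setting. AL139246.5 was higher in LM2 than in Par cytoplasm (1.08), in both fractions after HNRNPC knockdown (1.81 in cytoplasm, 1.58 in nuclei) and after T4 at 6 h (1.46 ± 0.37, adjusted p = 0.0104). At 6 h it was at 24.6, 22.3 and 21.5 CPM after DMSO and 42.7, 41.1 and 120 CPM after T4, with 1 library far above the rest. MANCR was lower in LM2 cells and after the knockdown. LINP1 was higher in LM2 cells, lower after the knockdown in cytoplasm and lower after T4 at 24 h. AC027307.3 and AC006058.3 rose after the knockdown in nuclei (1.76 and 1.78) and after T4 at 6 h. LINC01806 rose in both fractions with the knockdown (0.94 in cytoplasm, 1.57 in nuclei) and was lower after T4 at 24 h. The 3 experiments share no libraries, and no test of agreement between them was run.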

How the data were processed

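The authors deposited estimated counts, not normalized, per transcript end or genomic position, in 3 tables of 94924 entries. Salmon 0.14.1 made them and the genome was hg38, by the file names and the submitters' processing notes; settings are not given in the sources used here. Between 98.3 and 98.6% of values were whole. Entries were matched to GENCODE 29 and 89065 of them, of 42145 genes, were summed per gene. The entries left out held 0.934 to 4.23% of a library's reads. Only 11.8% of position entries lie inside the GRCh38 span of their gene, so none of their coordinates is printed. Sums were rounded and tested with edgeR 4.0.16 (R 4.3.3; TMM scaling, expression filter, quasi-likelihood test, all groups of a table in one fit) in 8542, 9351 and 8035 genes, with Benjamini-Hochberg adjustment over all genes of a comparison. The test was checked on simulated data with counts drawn independently for each gene. That check does not cover libraries in which many genes deviate together, as some did here. Intervals of ratios are 95% and cover counting error only. Sample groups follow the labels.

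Alternatives were DESeq2 1.42.0, scaling to library totals or median-of-ratios, no filter, only the groups compared, a replicate block, whole entries only, transcript ends only, and leaving out libraries. The lincRNA genes, lists and tests were chosen with earlier results of these data known, and the split into shared-read and whole-read was chosen after seeing the data. Named are the genes past an adjusted p of 0.05 with the largest changes (up to 10 per direction), those of highest level, members of role lists, and a few singled out after seeing their values. Same-numbered samples deviated together (every r above 0.1) in 1 of 6, 0 of 6 and 1 of 15 pairs of groups in the LM2 and Par, knockdown and T4 tables: LM2 with Par nuclei, and DMSO with T4 at 72 h. No 2 libraries of a group agreed within counting noise (chi-square per degree of freedom at least 1.47).

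Other lists gave no members (10 p53 and stress RNAs, 14 nuclear RNAs). Of 35 RNA surveillance, export and retention factors, 24 were tested in the knockdown table: 3 rose and 2 fell in cytoplasm, and 3 rose and 0 fell in nuclei. Some sequences and 1 gene that met the rule are not reported here.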

Additional observations from a re-analysis of the deposited data

Results flagged for a closer look

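The 14 values here are differences between the T4 effect at 24 h or 72 h and that at 6 h, each tested as an interaction in edgeR and past an adjusted p of 0.05. Between 24 h and 6 h the effect was more positive for EBLN3P (2.86), AC005261.1 (2.29) and CU633904.1 (1.92) and more negative for LINC01806 (−2.43). Between 72 h and 6 h it was more positive for EBLN3P (2.67) and AC005261.1 (1.71). It was more negative for LINC01104 (−3.16), AC027307.3 (−3.06), MIRLET7BHG (−2.14), AC127459.2 (−2.13), LINC01873 (−2.09), AL139246.5 (−1.94), AC007342.5 (−1.73) and MAPKAPK5-AS1 (−1.35). EBLN3P and AC005261.1 kept both calls, and AC027307.3 and LINC01873 kept theirs, in all 12 fits with 1 library fewer. CU633904.1 lost its call in 10 of 12 and MAPKAPK5-AS1 in 10 of 12. CU633904.1 lies on the short arm of chromosome 21 among near-identical copies, so its counts are uncertain. LINC01104, MIRLET7BHG, AC127459.2, LINC01873 and AC007342.5 are shared-read, and the share of reads in shared-read genes was lowest in T4 72 h 2 (0.963%) and highest in T4 6 h 3 (4.84%). Its part in these values was not tested.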

How the results depend on the processing

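Counts below are lincRNA genes past the test, against the main count. With whole entries only, nucleus against cytoplasm gave 20, 25, 36 and 30 in Par, LM2, gCTRL and gHNRNPC cells (main 81, 76, 122 and 123), LM2 against Par cytoplasm 10 (6), the knockdown in cytoplasm 25 (38), T4 at 6 h 9 (16) and 24 h 5 (8), and the change of the T4 effect from 6 to 72 h 6 (10). Fewer genes were tested there. With only the groups compared, LM2 against Par gave 39 in cytoplasm and 0 in nuclei (2), T4 gave 8 at 6 h and 92 at 24 h, and the changes from 6 to 24 h and 72 h gave 2 (4) and 5. Without a filter T4 at 6 h gave 83, at 24 h 80, the change to 72 h 85 and the knockdown interaction 1 (0). DESeq2 gave 35 at 6 h and 18 for the change to 72 h. Library totals gave 3 for LM2 against Par cytoplasm, median-of-ratios 5 at 24 h, and transcript ends only 1 for LM2 against Par nuclei. Without both nuclear libraries numbered 2, LM2 against Par gave 19 in cytoplasm and 1 in nuclei. The cause was not tested.

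With the replicate block, LM2 against Par nuclei gave 1 and the T4 change from 6 to 24 h 2, and no other count of calls moved by over 1.5 times. Leaving out 1 library gave 25 to 92 (Par) and 35 to 93 (LM2) for nucleus against cytoplasm, 113 to 122 in gCTRL and 109 to 119 in gHNRNPC cells, 1 to 7 and 0 to 3 for LM2 against Par cytoplasm and nuclei, 28 to 33 and 14 to 20 for the knockdown, 7 to 26 at 6 h, 3 to 5 at 24 h (main 8), and 2 to 7 and 4 to 23 for the changes from 6 h. The changes to 72 h were 4 without DMSO 72 h 1, 23 without DMSO 72 h 2, 16 without T4 72 h 3 and 5 without T4 72 h 2.

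No named value changed direction. Scaling to library totals moved the median of all genes by −0.40, −0.20 and 0.16 for T4 at 6, 24 and 72 h. At 6 h it left 4.81% of all calls higher, where TMM left 21.3%, and the whole-read median turned from 0.27 to −0.14. In the knockdown nuclei totals left 43.7% of calls higher, against 59.7%, and median-of-ratios turned LM2 against Par cytoplasm from 36.5 to 54.5% higher. Depth limits low genes: below about 10 reads a gene was not described.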
